A study of Mus musculus with 2 samples.

Results

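Exonic MAFK regions outside promoters are the regions of a chromatin immunoprecipitation sequencing (ChIP-seq) list whose summit, the position of highest signal, lies in an annotated exon and more than 1 kb from every annotated transcription start site (TSS). Of the 16836 regions of the deposited optimal list on chromosomes 1 to 19 and X, 625 met this rule. They lay in exons of 600 genes. The exon annotation was GENCODE vM21 on the mouse assembly GRCm38, called mm10 in the files. Each summit was placed in the first of 5 exon classes that applied, which gave 155 regions in coding sequence, 10 in 5′ untranslated regions (UTRs), 228 in 3′ UTRs, 103 in noncoding exons of protein-coding genes and 129 in exons of other genes. A further 7004 regions had summits in introns and 6638 in intergenic sequence, all more than 1 kb from a TSS, and these served for comparison.

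The regions were measured with an antibody against MAFK in ES-E14, an established line of male mouse embryonic stem cells of the 129/Ola strain. Both libraries, labelled as 2 biological replicates of the only group, carry the same record of origin, and part of the spread between them may be technical. No treatment is named. The files hold regions and not reads, so the depth of each replicate is unknown, and the line was not checked against marker genes because no expression was measured. A control library was not analysed here.

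MAFK is a small MAF protein, a basic leucine zipper factor that has no activation domain of its own. It binds DNA as a homodimer or with a CNC partner such as NRF2, NFE2 or BACH1, and these dimers read an AP-1-like site joined to a MAF core. The joined sequence is known as the NFE2-type composite element and is related to the antioxidant response element (ARE) of stress genes. An exon carries other information as well, since coding sequence is read in triplets and a 3′ UTR lies after the stop codon.

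The composite element has the forms TGACTCAGCA and TGAGTCAGCA, searched on both strands. The following windows of the GRCm38 reference are shown because they hold the element of strong regions in each main kind of exon, and those of Gsta3 and Slc48a1 because these are antioxidant and heme genes. They are written 5′ to 3′ along the strand of the element, with 10 bases to either side and the element in capitals. The first 5 lie in coding sequence, the next 3 in 3′ UTRs, then 1 in a noncoding exon of a protein-coding gene and 1 in an exon of a noncoding gene.
Zfhx3, chr8:108956611-108956640, plus strand: gaggaagcgcTGAGTCAGCAtctcgagtcg
Idnk, chr13:58163528-58163557, plus strand: tgaaaagtgaTGACTCAGCAaaggaaccgc
Alpk1, chr3:127679880-127679909, minus strand: ttcaaaacgcTGACTCAGCAaagactggct
Arhgap21, chr2:20880382-20880411, minus strand: cacagtgtgcTGAGTCAGCAgacgcagttc
Gsta3, chr1:21264925-21264954, plus strand: caaaatgtgtTGAGTCAGCAaagaagattt
Rps15a, chr7:118104880-118104909, minus strand: acaggaatcaTGAGTCAGCAgaaacctgag
Zfp9, chr6:118462260-118462289, minus strand: aagatgttgcTGACTCAGCActttaccgca
Slc48a1, chr15:97786836-97786865, plus strand: actccacttcTGACTCAGCAttttgcagcc
Tfe3, chrX:7765973-7766002, minus strand: cccaggccgaTGACTCAGCAcatttaggct
Gm26569, chr16:29938895-29938924, minus strand: cgtgttttgcTGAGTCAGCAactgggcaga

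Some of the strongest exonic regions held no composite element within 50 bp of the summit. The next windows show the closest match to the ARE core, which runs from TGA and a C or G, over 3 free bases, to GC. The 3′ UTR region of Ciapin1 and the coding region of Dennd2c are shown, with the core in capitals.
Ciapin1, chr8:94822784-94822812, minus strand: gtatttatgcTGAGTAAGCtccaggctcc
Dennd2c, chr3:103133278-103133306, minus strand: agtaaagtgcTGAGCCAGCatttcttcca

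The highest signal of any exonic region was 419.7, in the last exon of a transcript of Rps15a, a protein of the small ribosomal subunit. Signal is the authors' deposited score per region, which has no stated scale and was used only to describe and rank. The Rps15a region (chr7:118104703-118105069) had relaxed-list signals of 208.95 in replicate 1 and 210.71 in replicate 2, so the replicates lay close together. Next came 3′ UTR regions of Zfp9 at 390.99 (206.31 and 184.78 in replicates 1 and 2) and Ciapin1 at 374.86 (186.36 and 186.97). Zfp9 encodes a zinc finger protein and Ciapin1 a factor of cytosolic iron-sulfur cluster assembly. Next was the 3′ UTR of the septin gene Sept11, where replicate 1 had 183.19 and replicate 2 only 128.62.

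The strongest coding region lay in the last exon of Zfhx3 (chr8:108956493-108956782), which encodes a zinc finger homeobox factor, with a signal of 265.36 and replicate values of 133.96 and 133.23. Idnk, a gluconokinase gene, followed at 248.19 (129.17 and 117.23), and Alpk1, an alpha-kinase of innate immune sensing, at 245.91 (131.36 and 117.42). In these 3 genes the summit lay 0, 4 and 3 bp from the element. Dennd2c followed at 188.84 (106.68 and 82.37), and it held a second coding region at 102.3.

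Noncoding exons of protein-coding genes were led by Tfe3, which encodes a factor of lysosomal gene control, at 231.49 (129.26 and 99.73). Its summit lay 1350 bp from the nearest TSS. Arid4b followed at 167.64, Sesn3 at 166.06 and Mbnl1, a splicing factor gene, at 115.36. Among the exons of other genes, the lincRNA 2010300F17Rik had 279.71 without a composite element, Gm26569 had 250.67, the lincRNA Gm48324 had 203.6 and the pseudogene Gm13859 had 173.3. The 5′ UTR regions were weaker at their top, with 97.31 in Zfp239, 82.52 in Olfr56, 58.47 in Rims3 and 46.99 in Alg13. Of the 20 exonic regions of highest signal that overlapped both replicates' thresholded lists, 12 were in 3′ UTRs, 4 in coding sequence, 3 in exons of other genes and 1 in a noncoding exon of a protein-coding gene. The composite element was present in 14 of these 20.

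**Figure D1:**
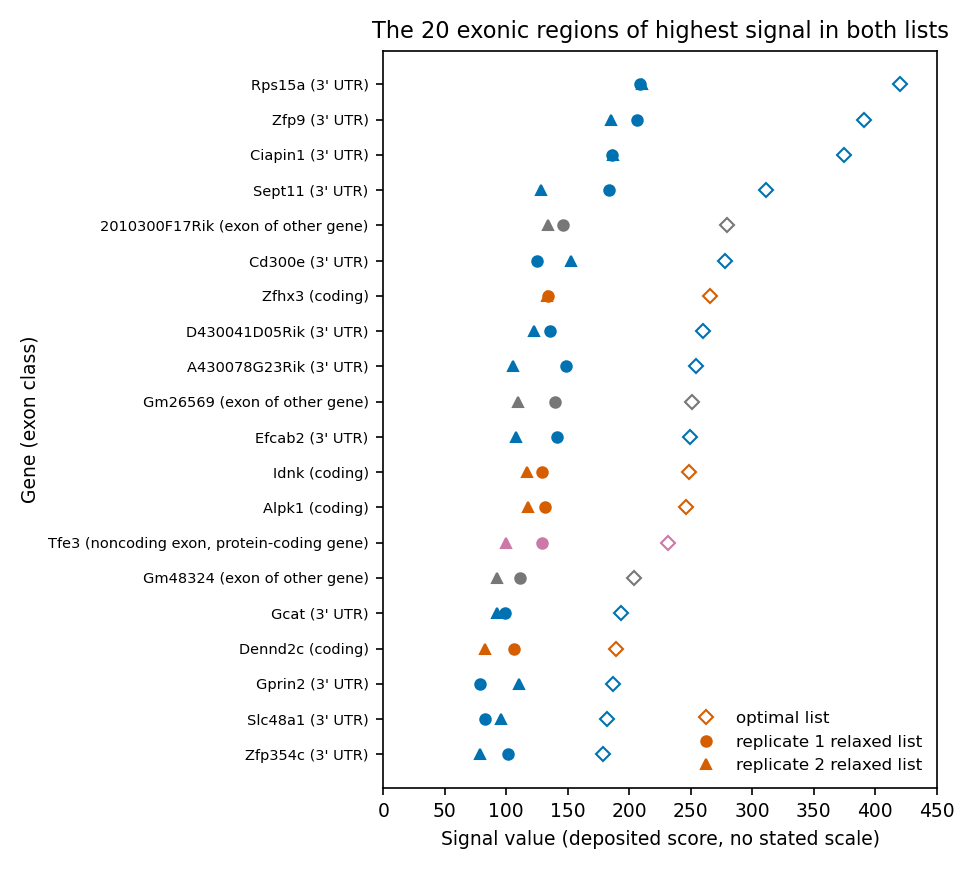
Signal value of the 20 exonic regions of highest signal that overlapped both replicates' thresholded lists, in the optimal list (open diamonds) and in the relaxed lists of replicate 1 (circles) and replicate 2 (triangles), coloured by exon class. Values in the optimal list run from 178.91 to 419.7, and the replicates lie close together for Rps15a and apart for Sept11 and A430078G23Rik (148.85 and 105.81).

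By exon position, 402 of 625 summits were in a last exon, 135 in an internal exon, 76 in a single-exon transcript and 12 in a first exon. The exons that held them had a median length of 1979 bp. The distance rule itself leaves out the sequence next to each TSS, and the share of annotated exonic sequence in each exon position was not measured. Coding and 3′ UTR regions differed in this setting. The median exon length was 248 bp for coding and 2794 bp for 3′ UTR regions, and 108 of 155 coding summits were in internal exons whereas 217 of 228 3′ UTR summits were in last exons. Only 29.7% of coding regions lay wholly inside their exon, against 90.4% of 3′ UTR regions, so a coding region usually reached beyond its exon. Along the UTR part of the exon, from its stop-codon side to its far end, the 228 summits fell as 50, 63, 56 and 59 into successive 25% stretches, and no test was made of this spread. Of the 129 regions in exons of other genes, which lay in 126 genes, 57 were in lincRNA genes, 29 in loci of the biotype TEC, which awaits experimental proof, 18 in antisense genes, 14 in processed transcript genes and the rest in other biotypes, pseudogenes among them. Of all exonic regions, 17 overlapped another region of the optimal list. The same was not counted for introns or the whole list, and overlapping regions entered the tests as separate regions.

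Coding regions held the composite element less often than intronic regions did, and exonic regions as a whole did not pass the test against intronic ones in the main comparison. Within 50 bp of the summit, 169 of 625 exonic regions (27.0%, 95% Wilson interval 23.7 to 30.7) held it, beside 28.2% of all regions of the optimal list. The share was 31.2% in introns (2182 of 7004) and 29.5% in intergenic sequence (1961 of 6638). The odds ratio of exonic against intronic regions was 0.819 (95% interval 0.682 to 0.984), with an adjusted p of 0.129 in Fisher's exact test, two-sided, and against intergenic regions it was 0.884 (adjusted p = 0.264). By this exact test, the comparison with introns passed in the conservative list (0.780, adjusted p = 0.0402) and the second run (0.783, adjusted p = 0.0291). It also passed with protein-coding transcripts alone (0.597, adjusted p = 3.7e-05, Fisher's exact test). No other setting passed, and with 1 mismatch the ratio was 1.03. Equally wide windows placed 1000 bp upstream and downstream of the exonic summits held it in 2 of 1250 cases (0.16%), for an odds ratio of 231 (57.1 to 936.1) and a p of 5.73e-85 in the same test. That test took all windows as independent and did not use the pairing of each summit with its own flanks. The element was thus far more frequent at the summits than in the sequence nearby. Other locations showed the same, with the element in 10 of 14008 flanking windows of intronic and 10 of 13276 of intergenic summits.

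By exon class, the composite element was found in 29 of 155 coding regions (18.7%, 13.4 to 25.6), 3 of 10 5′ UTR regions, 58 of 228 3′ UTR regions (25.4%, 20.2 to 31.5), 33 of 103 regions in noncoding exons of protein-coding genes (32.0%, 23.8 to 41.6) and 46 of 129 regions in exons of other genes (35.7%, 27.9 to 44.2). Coding regions were lower than exons of other genes by an odds ratio of 0.415 (0.242 to 0.713, adjusted p = 0.00355, Fisher's exact test, two-sided) and lower than introns by 0.509 (0.339 to 0.764, adjusted p = 0.00311). Against 3′ UTRs the odds ratio was 0.675 (0.408 to 1.11, adjusted p = 0.137, same exact test), an interval that spans 1. The other classes did not pass the test against introns, with odds ratios of 0.754 for 3′ UTRs, 1.04 for noncoding exons of protein-coding genes and 1.22 for exons of other genes. The coding share was 26.5% (13 of 49) in replicate 1's own thresholded list and 22.1% (21 of 95) in replicate 2's, a mean of 24.3% ± 3.13 (SD, n = 2). The intronic shares in the same lists were 41.03% and 37.6% (39.3% ± 2.43), so coding was below intronic in both. By the same exact test, the comparison with introns was lost in replicate 1's list alone (odds ratio 0.519, adjusted p = 0.164), in the strongest 50% of regions (0.516, adjusted p = 0.0552) and among summits more than 2 kb from every TSS (0.590, adjusted p = 0.0604). It was also lost in the same exact test among summits outside soft-masked sequence (0.592, adjusted p = 0.0502) and among regions in both replicates' lists (0.571, 12 of 38 coding regions, adjusted p = 0.309). Also by that exact test, the comparison with exons of other genes was lost in replicate 1's list alone (0.428, adjusted p = 0.0936) and among regions in both lists (0.498, adjusted p = 0.267).

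**Figure D2:**
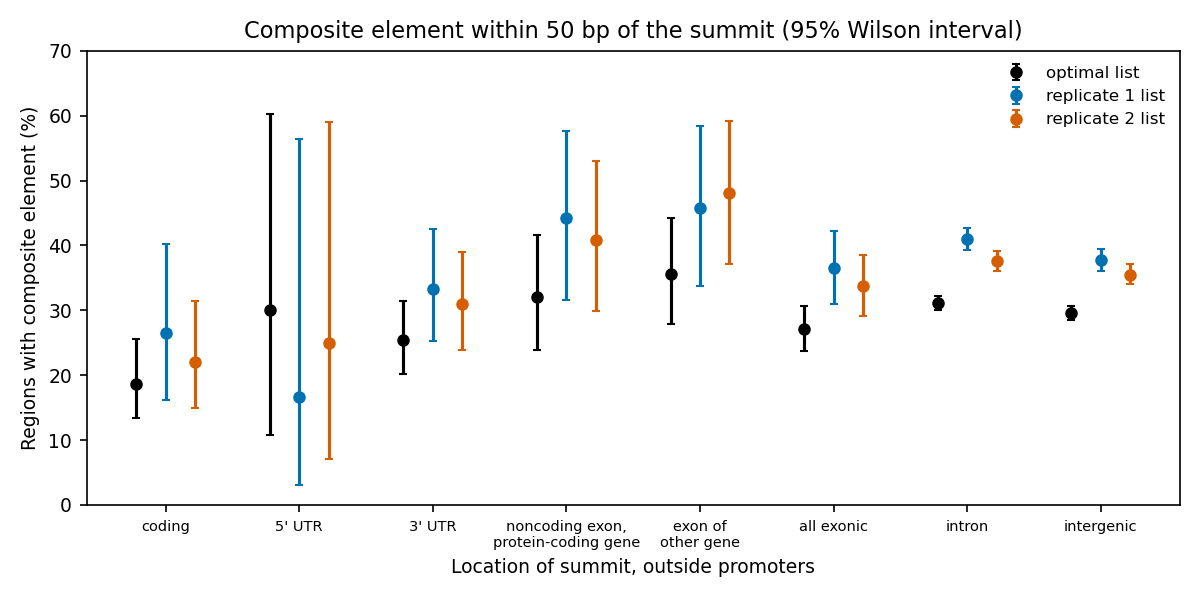
Share of regions (%) with the composite element within 50 bp of the summit, by location of the summit, in the optimal list (black) and the thresholded lists of replicate 1 (blue) and replicate 2 (orange), with 95% Wilson intervals that cover counting error only. Coding regions are at 18.7% in the optimal list, and exons of other genes at 35.7%, with the wide 5′ UTR intervals resting on 10 or fewer regions.

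With 1 mismatch allowed, the shares drew together, at 50.97% for coding, 57.9% for all exonic and 57.2% for intronic regions, and the coding comparison with introns no longer passed (odds ratio 0.779, adjusted p = 0.553, Fisher's exact test). Among the 50 coding regions with a match of exactly 1 mismatch and no exact one, the mismatch was most often at the first base of the element (13 of 50, 26.0%), and among 1822 such intronic regions it was there in 9.33% and at the last base in 19.4%. In 3′ UTRs it was at the first base in 11 of 79 (13.9%), and these positions, looked at after the data were seen, were not tested against each other. The shorter ARE core was found in 405 of 625 exonic regions (64.8%), where all regions of the optimal list had 60.3%. Introns had 63.6% (odds ratio 1.05, adjusted p = 0.573) and intergenic regions 61.0% (1.18, adjusted p = 0.129, Fisher's exact test, two-sided). The flanking windows of exonic summits held this core in 8.16%. Of the coding regions, 91 of 155 (58.7%) had it, 62 of them without the composite element, and 26 had neither the ARE core nor the MAF core TGCTGA. Among all exonic regions, 96 of 625 had neither. These counts cover exonic regions only and are not set against introns or the whole list.

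Where the composite element was present it lay close to the summit, though the search took only elements wholly within 50 bp, which limits the distance. It was wholly within 25 bp in 138 of the 169 exonic and 1787 of the 2182 intronic regions. The median distance was 6 bp over the 169 exonic regions, 109 had it within 10 bp and in 43 the summit was on the element. The form TGACTCAGCA was nearest the summit in 103 regions and TGAGTCAGCA in 66, but in coding regions the split was 10 against 19. Relative to the gene, 81 elements ran in the sense direction and 88 in the antisense direction. More than 1 element was counted in 21 regions. The element was preceded by TGC, which completes the MAF palindrome, in 13 of 169 exonic and 173 of 2182 intronic regions (7.69% and 7.93%). A palindrome matches on both strands and was counted once per strand. The 21 regions therefore include palindromes and not only regions with separate elements. The coding share of this palindrome was 4 of 29. Palindromes hold both forms and have no direction of their own. Their form and their direction, sense or antisense, were taken from the match nearer the summit or, at equal distance, by position.

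Coding sequence cannot hold the element in every reading frame. The element and its reverse complement both contain TGA, a stop codon when read in frame. The genome held 170 composite elements in coding exons more than 1 kb from a TSS. Codon position was taken for the first base of the match in the reading direction of the gene. That base was at codon position 1 in none of them, on either strand. Sense elements began at codon position 2 in 43 cases, of which 11 lay within 50 bp of a summit, and at position 3 in 43 cases, of which 8 did. For antisense elements that base is the complement of the element's last base. It was at position 2 in 43 cases (9 near a summit) and at position 3 in 41 (7 near a summit). A palindrome was counted once per strand here as well. No test was made of these small counts. In Zfhx3 and Arhgap21 the element began at codon position 2, and in Idnk, Alpk1 and Gsta3 at position 3. The other coding regions of highest signal with the whole element in coding sequence were in Ccdc88c (113.13), Zfp473 (93.24), Sgcd (75.13), E330034G19Rik (61.57) and the corepressor gene Ncor1 (44.61). In Ncor1 the region overlapped the list of replicate 1 only, with relaxed signals of 23.42 and 21.5.

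Coding sequence also held the element less densely, at 6.79 per Mb, than introns (9.39), 3′ UTRs (8.26) or exons of other genes (11.8). Of the elements that were there, 35 of 170 in coding sequence (20.6%, 15.2 to 27.3) lay within 50 bp of a summit of any kind, beside 67 of 255 in 3′ UTRs (26.3%, 21.3 to 32.0), 51 of 181 in exons of other genes (28.2%, 22.1 to 35.1) and 2447 of 9476 in introns (25.8%, 24.95 to 26.7). None of these differences from introns passed Fisher's exact test, two-sided, with odds ratios of 0.745 (0.512 to 1.08, adjusted p = 0.397) for coding sequence, 1.02 (0.772 to 1.36, adjusted p = 0.885) for 3′ UTRs and 1.13 (0.813 to 1.56, adjusted p = 0.740) for exons of other genes. A palindrome entered all these counts once per strand, so the tests took its overlapping matches as separate elements. In coding sequence, 60.0% of elements near a summit and 40.0% of the others had A or T in at least 2 of the 3 bases after the element. The corresponding shares were 65.7% and 46.3% in 3′ UTRs and 71.1% and 49.6% in introns, so the order was the same in each.

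Per base, no exon class passed the test against introns for summit density. Exonic bases outside promoters held 7.47 summits per Mb (95% Poisson interval 6.89 to 8.08), introns 6.94 and intergenic sequence 5.07. Coding sequence had 6.19 per Mb, 3′ UTRs 7.39, noncoding exons of protein-coding genes 8.78, exons of other genes 8.38 and 5′ UTRs 14.9, the last from 10 summits on 0.672 Mb. Against introns, the rate ratio was 0.892 (0.756 to 1.05, adjusted p = 0.208, exact binomial test of 2 rates, two-sided) for coding sequence and 1.07 (0.929 to 1.22, adjusted p = 0.349) for 3′ UTRs. It was 1.27 for noncoding exons of protein-coding genes, 1.21 for exons of other genes and 2.15 (1.03 to 3.95) for 5′ UTRs, each with an adjusted p of 0.0602 in the same exact test. In the list of replicate 1 alone the coding ratio was 0.601 (adjusted p = 0.000776, exact binomial test), and in that of replicate 2 alone 0.964.

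**Figure D3:**
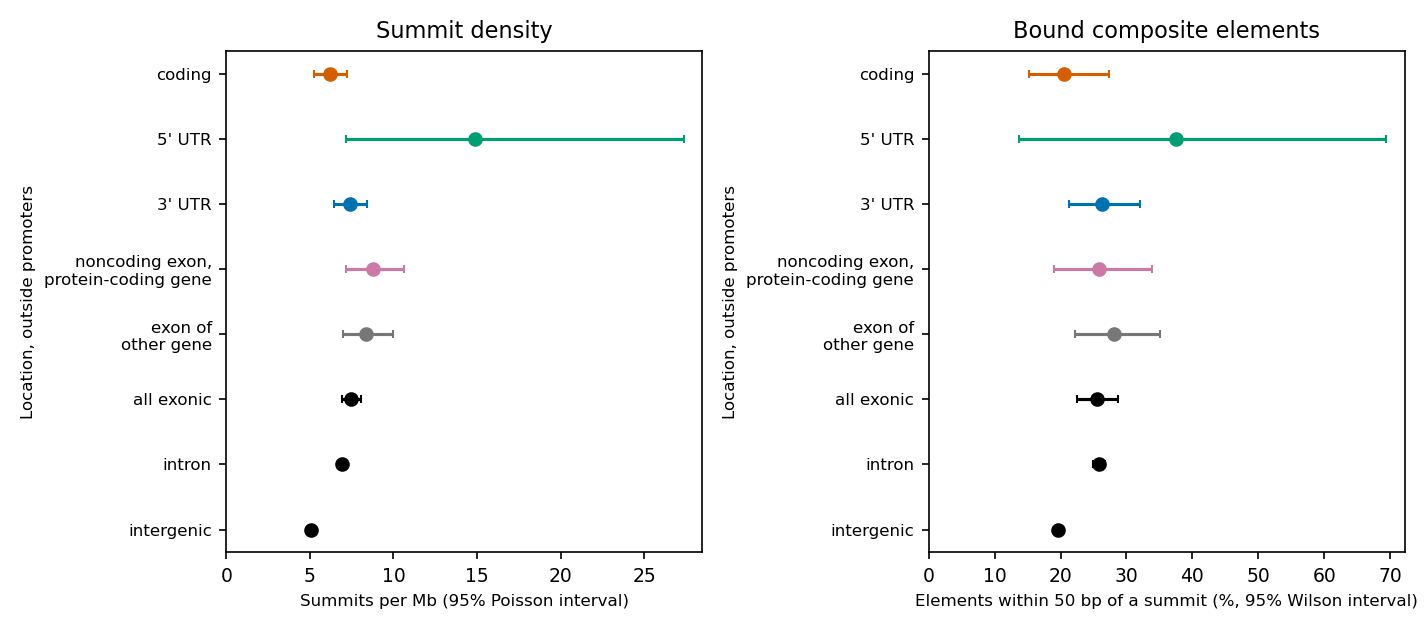
Left, summits per Mb of annotated sequence more than 1 kb from every TSS, with 95% Poisson intervals. Right, share of composite elements in that sequence that lie within 50 bp of a summit, with 95% Wilson intervals. Coding sequence is at 6.19 per Mb and 20.6% and introns at 6.94 per Mb and 25.8%, and the widest intervals are those of 5′ UTRs.

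Exonic summits lay on soft-masked bases, which mark repeats in the reference, less often than intronic ones. This was so for 67 of 625 exonic summits (10.7%, 8.53 to 13.4), beside 16.4% of the whole optimal list and 1207 of 7004 intronic summits (17.2%), an odds ratio of 0.577 (0.444 to 0.749, p = 1.52e-05, Fisher's exact test, two-sided). Coding sequence had 3 of 155 (1.94%), 3′ UTRs 24 of 228 (10.5%), noncoding exons of protein-coding genes 16 of 103 (15.5%) and exons of other genes 22 of 129 (17.1%). Composite elements not near a summit were soft-masked in 2.96% of cases in coding sequence, 14.9% in 3′ UTRs and 18.4% in noncoding exons of protein-coding genes. The share was 28.5% in exons of other genes and 25.6% in introns, so coding sequence was lowest away from summits as well. How much of the annotated sequence of each class is masked was not tested, so the comparison does not separate MAFK binding from the sequence of each class.

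Exonic regions had a median signal close to that of the others, and their share among the strongest did not pass the test. Their signal ran from 4.34 to 419.7 with a median of 28.5, where introns had 28.4 and intergenic regions 28.1. The strongest 25% of the optimal list included 161 exonic regions (25.8%), 25.6% of intronic and 25.1% of intergenic regions, for odds ratios of 1.01 (0.838 to 1.22, adjusted p = 0.924) and 1.03 (0.857 to 1.25, adjusted p = 0.924) in Fisher's exact test, two-sided. By class the median was 25.3 in coding sequence, 29.99 in 3′ UTRs, 27.9 in noncoding exons of protein-coding genes, 30.5 in exons of other genes and 40.6 over the 10 regions in 5′ UTRs. Within exonic regions, the element went with signal, and the other locations showed the same order. In the strongest 50% of the list it was in 1439 of 3584 intronic and 1277 of 3359 intergenic regions. Among all such regions it was in 2182 of 7004 and 1961 of 6638. The following values are for exonic regions. The element was present in 71 of the 161 regions among the strongest 25% (44.1%) and in 98 of the other 464 (21.1%), an odds ratio of 2.95 (2.01 to 4.32, p = 5.61e-08, Fisher's exact test, two-sided), and the median signal was 39.4 with it and 25.9 without it.

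Presence in both replicates did not pass the test against introns or intergenic sequence. Both thresholded lists were overlapped by 229 of 625 (36.6%), beside 35.4% of all regions of the optimal list, 36.3% of intronic and 35.5% of intergenic regions (odds ratios 1.01, 0.855 to 1.20, and 1.05, 0.886 to 1.25, both adjusted p = 0.896, Fisher's exact test, two-sided). The conservative list of the same processing run was overlapped by 512 exonic regions (81.9%), beside 83.0% of intronic and 82.5% of intergenic regions. In the relaxed lists, 597 exonic regions had a signal in both replicates, with medians of 14.1 in replicate 1 and 16.1 in replicate 2 and a Spearman correlation of 0.70 across regions. This correlation describes regions that share the same pair of libraries, and it was 0.57 over 150 coding and 0.71 over 218 3′ UTR regions.

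**Figure D4:**
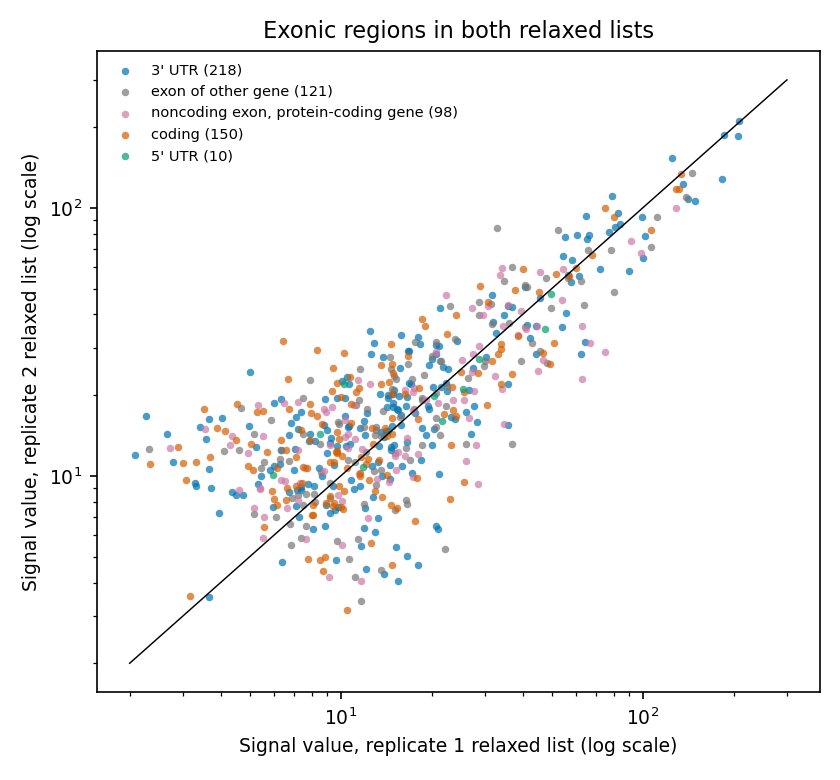
Signal value of exonic regions in the relaxed list of replicate 1 against that of replicate 2, both on log scales, for the 597 regions in both lists, coloured by exon class with the number of each. The black line marks equal values, and the points scatter most widely at low signal and narrow towards the highest values near 210.71.

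The replicates' lists were unequal over coding regions. The list of replicate 1 overlapped 47 of 155 coding regions (30.3%) and that of replicate 2 overlapped 82 (52.9%), while the values were 45.5% and 53.4% for introns. Of the coding regions in just 1 list, 9 were in that of replicate 1 and 44 in that of replicate 2, against 639 and 1194 for introns, an odds ratio of 0.382 (0.185 to 0.788, adjusted p = 0.0305, Fisher's exact test, two-sided). The other 3 classes tested did not pass, with 19 against 46 in 3′ UTRs, 7 against 18 in noncoding exons of protein-coding genes and 6 against 21 in exons of other genes (adjusted p from 0.444 to 0.533, same test). In introns this split moved with GC content, and in coding regions replicate 2 led at each GC level. The median GC within 50 bp of the summit was 51.5% for coding and 46.5% for intronic regions, and intronic regions of at least 55% GC were divided 24 against 184, where those under 45% GC were divided 400 against 422. Coding regions of at least 55% GC were divided 3 against 19, those from 45 to 55% GC 4 against 17 (intronic 215 against 588) and those under 45% GC 2 against 8. The share with the composite element was 14%, 25.7% and 9.68% in these 3 coding groups, from high to low GC, and 29.3%, 34.5% and 28.2% in the intronic ones. The part of GC content in either difference was not tested.

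**Figure D5:**
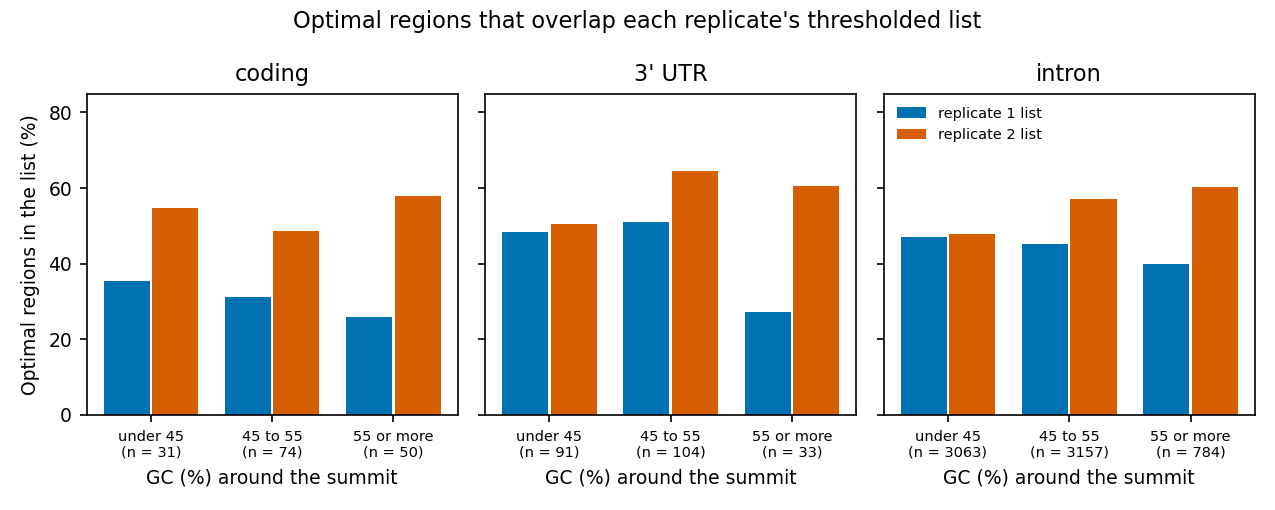
Share of optimal regions (%) that overlap the thresholded list of replicate 1 (blue) and of replicate 2 (orange), by GC content within 50 bp of the summit, for coding, 3′ UTR and intronic regions, with the number of regions below each pair of bars. Among introns the replicates are level under 45% GC (47.2% and 47.9%) and apart at 55% or more (39.8% and 60.2%), and among coding regions replicate 2 is above replicate 1 in all 3 groups.

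Exonic regions were in 474 of 21728 protein-coding genes (2.18%). Heme and iron genes had 3 of 20, and these were Slc48a1, the heme transporter HRG1, Blvrb, a biliverdin reductase, and Fech, the ferrochelatase that inserts iron into heme. The Slc48a1 region was in exon 2 of 3 of a transcript whose UTR reaches it, with a signal of 181.72 (82.49 and 95.82 in replicates 1 and 2) and 2 composite elements. The Blvrb and Fech regions were in noncoding exons, at 72.53 (30.72 and 43.12) and 88.62 (33.74 and 55.96), without the composite element. All 3 regions were in both replicates' lists. Antioxidant genes had 2 of 28. These were Gsta3, a glutathione S-transferase gene, whose coding region had 50.28 (25.05 and 24.47), and Prdx6, a peroxiredoxin gene, whose noncoding exon had 104.41 (45.68 and 57.54) with an ARE core and no composite element.

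None of the 10 small MAF and CNC genes, the 12 AP-1 genes or the 68 protocadherin genes on the lists had an exonic region outside promoters. The pluripotency list had 1 of 20, the nuclear receptor gene Esrrb, in coding sequence at 35.51, where replicate 1 had 9.40 and replicate 2 had 25.19 and only the list of replicate 2 held it. The proteasome list had 1 of 40, Psmc2, and the collagen list 1 of 45, Col5a1, with a 3′ UTR region at 22.50 that neither replicate's list held. Solute carrier genes had 7 of 371 (1.89%), among them the glucose transporter gene Slc2a1 (3′ UTR, 52.28) and Slc16a5 (3′ UTR, 157.06). Zinc finger genes, listed by the symbol Zfp alone and so without others such as Zfhx3, had 14 of 394 (3.55%), with 6 of the regions in coding sequence, 6 in 3′ UTRs and 2 in 5′ UTRs. Zfp9, Zfp84 (96.39), Zfp473, Zfp169 (37.03) and Zfp788 (23.58) had the composite element, and the other 9 did not. With so few genes on the short lists, 1 gene moves a share by several percentage points.

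Most genes with an exonic region had 1. Cradd, Resf1 and Yae1d1 had 3 each. In Cradd, an adaptor gene of cell death signalling, the signals were 82.3 and 52.0 in noncoding exons and 6.5 in coding sequence. The 3 regions of Yae1d1 were all in its 3′ UTR at 52.11, 15.01 and 5.35, and those of Resf1 were at 30.1 and 22.3 in coding sequence and 24.4 in a noncoding exon.

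The distance cut of 1 kb set which regions were counted. The 19 regions between 1009 and 1099 bp from a TSS, the nearest 100 bp beyond it, had a median signal of 26.0, 3 with the composite element and 3 in both replicates' lists. The 21 exonic summits between 901 and 995 bp, which the rule left out, had a median signal of 24.5, 4 with the element and 4 in both lists.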

How the data were processed

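ChIP-seq regions for MAFK in 2 replicates of ES-E14 cells were analysed. Region lists on mm10 were deposited. For the aligner, the peak caller and read filtering, details were not given in the sources used here. The notes deposited by the authors describe 2 processing runs. The first gave relaxed lists per replicate and, by the irreproducible discovery rate, the optimal and conservative lists. The second gave the replicates' own thresholded lists and 1 for both together, so comparing these with the optimal list crosses both runs. The signal value and the scaled score of each region were deposited by the authors without a stated scale, and the deposited −log10 q-value was not tested. Summits come from the deposited summit offset.

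Summit classes followed the order coding, 5′ UTR, 3′ UTR, noncoding exon of a protein-coding gene, exon of another gene, intron, intergenic. Genes on both strands were used. Elements had to lie wholly within 50 bp of the summit, and lists overlapped by at least 1 bp. Matches were counted on each strand, so a palindrome gave overlapping elements. Sequence came from the GRCm38 RefSeq assembly. Shares were compared with Fisher's exact test and rates with an exact binomial test (scipy 1.17.1), both two-sided, with Benjamini-Hochberg adjustment within a family at 0.05. Intervals are 95% and reflect counting error alone. Since regions do not replicate one another, a p-value over them describes these lists. Annotation and search were tested on simulated sequence with planted elements.

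Members and gene lists were chosen with earlier results of these data known. Named are the 20 strongest regions in both replicates' lists, the 4 strongest per class, regions in listed genes, genes with 3 or more regions and the 10 strongest coding regions with the whole element in coding sequence. The class comparisons with introns, the split of regions in 1 list, the GC groups, the mismatch positions and the codon frames were added after the data were seen. The comparison of the element between strong and other exonic regions was not among the planned ones either. Alternatives were the replicates' own lists, the conservative list, the second run, the strongest 50%, 2 kb, protein-coding transcripts, 25 and 100 bp windows and 1 mismatch. Chosen after seeing the data were the alternatives of summits outside soft-masked sequence and regions in both replicates' lists.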

Additional observations from a re-analysis of the deposited data

How the results depend on the processing

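Values are odds ratios, or rate ratios for density. In the list of 1 replicate at a time (replicate 1 or 2 left out), the lowest and highest values were 0.916 and 1.27 for the strongest 25% against introns, 0.954 and 1.24 against intergenic regions, 2.74 and 3.02 for 5′ UTR density (the higher passed the test), 1.36 and 1.43 for density in noncoding exons of protein-coding genes (the higher passed), 0.601 and 0.964 for coding density (the lower passed), 1.27 and 1.51 for the ARE core against intergenic regions (the higher passed), 0.307 and 0.428 for the composite element in coding against other-gene exons (the higher no longer passed), 0.471 and 0.519 for coding against introns (the higher no longer passed), 0.912 and 1.19 for presence in the replicates against introns and 0.907 and 1.23 against intergenic regions (the higher passed in both). The number of exonic regions was 277 and 383, and 322 among the strongest 50%.

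With the conservative list, the composite element in exonic against intronic regions reached 0.780, 5′ UTR density 2.69 and other-gene exon density 1.25, all passing, and the bound share in 3′ UTRs turned to 0.990. Among the strongest 50%, the ARE core against intergenic regions passed at 1.43 and the composite element in coding against intronic regions no longer passed at 0.516. In the second run, the composite element passed for exonic (0.783) and 3′ UTR (0.707) against intronic regions, as did density in 5′ UTRs (2.34) and noncoding exons of protein-coding genes (1.28), and 3 values turned: the strongest 25% against introns (0.959) and intergenic regions (0.995) and the 3′ UTR bound share (0.977). Beyond 2 kb, the ARE core against intergenic regions passed at 1.29 and coding against intronic regions no longer did at 0.590.

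With protein-coding transcripts alone, the composite element passed against introns (0.597), against intergenic regions (0.660) and for 3′ UTRs (0.701). In the same setting the ARE core against introns (0.971), the strongest 25% against introns (0.909) and intergenic regions (0.935), 3′ UTR density (0.988) and the 3′ UTR bound share (0.921) turned. Within 100 bp, the ARE core against introns (0.999) and the 3′ UTR bound share (0.978) turned. With 1 mismatch, the composite element turned against introns (1.03), against intergenic regions (1.17) and for 3′ UTRs (1.13), and coding against other-gene exons (0.658) and against introns (0.779) no longer passed. Overlap with the conservative list turned presence against introns (0.926) and intergenic regions (0.963). Among summits outside soft-masked sequence coding against introns no longer passed (0.592). Among regions in both lists, the ARE core against intergenic regions passed (1.55), and coding against other-gene exons (0.498) and introns (0.571) no longer passed. The cause was not tested for any of these. Every other tested value kept its direction and side of the threshold, and the number of exonic regions in the remaining lists and settings ran from 428 to 653.

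Samples could not be paired across groups because the study has 1 group. Most odds ratios that turned lay near 1. The files hold no reads, so depth and its part in the unequal lists of the replicates could not be measured, and 10 regions in 5′ UTRs limit that class. Classes depend on the annotation, since a base that is coding in 1 transcript can be intron in another.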
